A study of Mus musculus with 22 samples.

Results

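The comparison described here is that of anti-IL-2 with control IgG in CD4 T cells of the spleen, 6 of the 22 libraries of the series, chosen by their labelled cell type, tissue and treatment. The mice were wild-type BALB/c recipients, irradiated at a lethal dose and then injected with bone marrow and spleen cells from wild-type C57BL/6 donors, an allogeneic transplant in which donor T cells attack the host. The recipients received control IgG (labelled REC-IgG, 3 libraries) or an antibody against IL-2 (labelled REC-anti-IL-2, 3 libraries) on alternate days up to day 6 from the day of transplant, and donor CD4 T cells were sorted from the spleen on day 7. All 6 libraries therefore share the transplant, the irradiation and the day, and none comes from an untransplanted mouse. Each of the 3 batches named in the labels (181201, 181212 and 190306) holds 1 library of each treatment. The labels do not say what a batch shares, nor whether a library is 1 mouse or a pool, so the p-values below measure the spread between libraries. Library totals were 15598591 to 23172919 counts, spread over 14136 to 14690 detected gene names. The comparison asks what blocking IL-2 does to its pathway through STAT5 in donor cells.

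IL-2 is a growth factor that activated T cells make and consume. Its receptor joins the chains Il2rb and Il2rg, shared with other cytokines, to Il2ra, which raises the affinity for IL-2, and it signals through the kinases Jak1 and Jak3 to the transcription factors Stat5a and Stat5b. STAT5 turns on Il2ra itself and the feedback inhibitors Cish and Socs2, favours effector and cytotoxic genes, and opposes Bcl6, the factor that drives follicular helper T cells, which help B cells.

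The sorted cells carried the RNA of CD4 T cells in all 6 libraries. Cd4 ran from 1811 to 2007 CPM (counts scaled by TMM to a common library size), and the sum of 8 T cell markers from 6190 to 6760 CPM. The CD8 chains Cd8a and Cd8b1 summed to between 8.64 and 15.6 CPM, and 6 B cell markers to between 1.71 and 3.70 CPM. The sum of 16 macrophage markers, by contrast, was 78.7 CPM with IgG and 431 CPM with anti-IL-2 in batch 181201, 27.3 and 60.4 CPM in batch 181212, and 298 and 45.5 CPM in batch 190306. None of those 16 was at 0 in all 6 libraries. They were thus higher with anti-IL-2 in batches 181201 and 181212 and lower in batch 190306, the same order as the gene groups that rose below, and their part in those groups was not tested. Erythroid markers summed to 42.2 CPM in the anti-IL-2 library of batch 181201 and to at most 3.09 CPM in the other 5, and neutrophil markers to 119 CPM in the anti-IL-2 library of batch 190306 and to at most 12.1 CPM elsewhere.

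**Figure D1:**
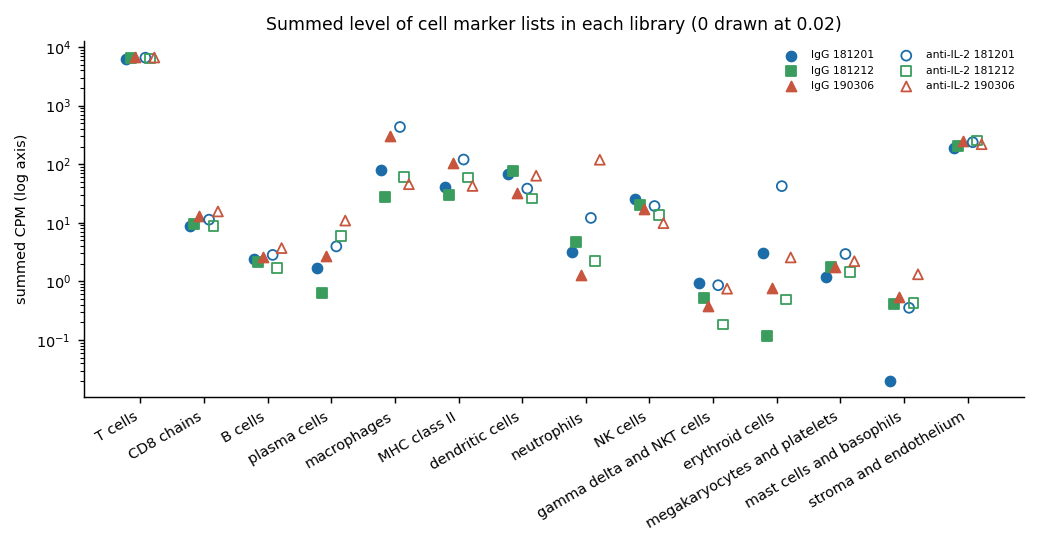
Summed CPM (log axis) of 14 marker lists in each of the 6 libraries, with filled symbols for IgG, open symbols for anti-IL-2 and 1 colour and shape per batch and a sum of 0 at the low end of the axis. T cell markers lie between 6190 and 6760 CPM in every library, while macrophage markers spread from 27.3 to 431 CPM.

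Before any gene is named, the batches must be set apart, because the labelled difference ran one way in batches 181201 and 181212 and the other way in batch 190306. Across 9657 genes whose mean log2 CPM was 2 or more, the difference between anti-IL-2 and IgG in batch 181201 correlated with that in batch 181212 (r = 0.665) and inversely with that in batch 190306 (r = -0.755), and r between batches 181212 and 190306 was -0.745. These are descriptions across genes, which are not independent, and no library is shared between batches. The spleen CD8 libraries of the same batches gave r of 0.642, -0.743 and -0.706 for the same pairs of batches. In a model in which batch 190306 had a treatment effect of its own, that effect differed from the effect of the other batches for 3111 of 12841 genes (edgeR quasi-likelihood test, adjusted p under 0.05), 13.1% of the genes in the higher and 11.2% in the lower direction. Batch 190306 was set apart because its labelled difference ran the other way, so this count describes the reversal and is no independent test of it. For spleen CD4 cells the batch holds 1 library of each treatment, and the spread was estimated across all groups of that 22-library fit. No library was given another label, and what reversed the order in batch 190306 was not tested.

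Taken at the labels over all 3 batches, 0 of 12841 genes (0%) passed an adjusted p of 0.05 in edgeR, and 282 had an unadjusted p under 0.05. DESeq2 and limma voom also called 0 genes. Over batches 181201 and 181212 alone, 1281 of 13073 genes (9.8%) were higher and 1346 (10.3%) were lower with anti-IL-2, and the median log2 fold change over all genes tested was 0.0016. Unless said otherwise, "rose" and "fell" below refer to anti-IL-2 against IgG in this fit, fold changes are log2 values with their standard error, and the genes described in full have their levels in batch 190306 beside them. Every count of list members that rose or fell is to be read against the 9.8% and 10.3% of all genes tested. Without the anti-IL-2 library of batch 181201, which had the highest sums of erythroid and macrophage markers, 1562 genes passed.

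The reversal held over nearly all the genes called. Of the 1281 that rose, 1218 were lower with anti-IL-2 in batch 190306, and of the 1346 that fell, 1294 were higher there. The median size of the difference over the called genes was 0.538 in batch 181201, 0.532 in batch 181212 and 0.39 in batch 190306, on the log2 CPM scale. The genes were called on batches 181201 and 181212, which raises their sizes there. The 3 sizes therefore cannot show that the difference was smaller in batch 190306. For 1230 of the 2627 called genes, the IgG library of batch 190306 lay nearer to the anti-IL-2 mean of the other batches and its anti-IL-2 library nearer to their IgG mean. That held for the IgG library at 61.2% and for the anti-IL-2 library at 85% of the called genes, each taken alone. By batch, 6.07% of 12841 genes were at least 1 higher and 3.39% at least 1 lower on the log2 CPM scale in batch 181201, 4.98% and 3.81% in batch 181212, and 2.94% and 4.14% in batch 190306. Of the 563 genes past 1 in the same direction in batches 181201 and 181212, 368 were past 1 in the opposite direction in batch 190306 and 4 in the same. These 563, too, were chosen by their sizes in batches 181201 and 181212.

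**Figure D2:**
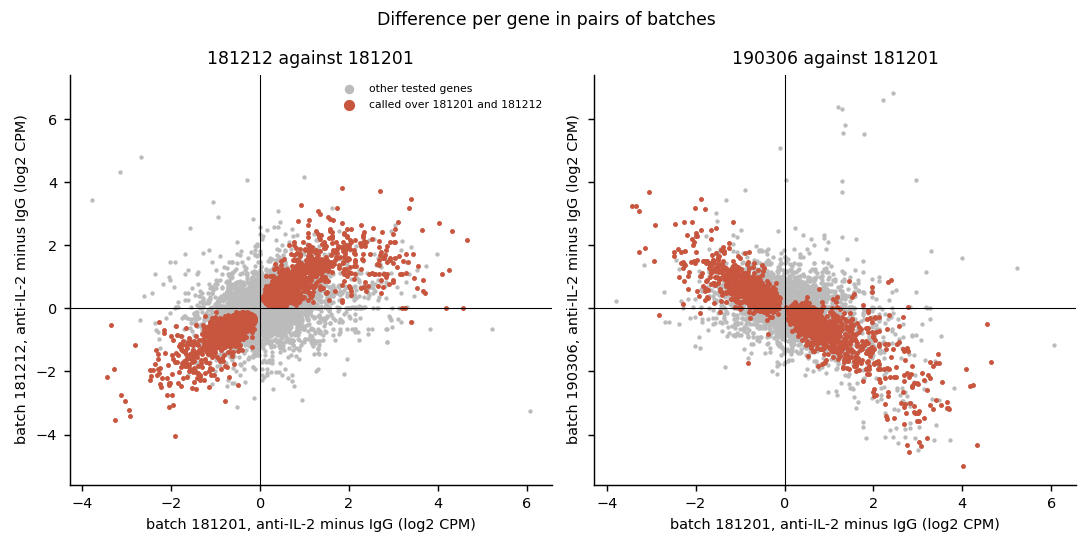
Difference of each tested gene between anti-IL-2 and IgG (log2 CPM) in batch 181212 (left) and batch 190306 (right), each against batch 181201, with the 2627 genes called over batches 181201 and 181212 in red. On the left the called genes lie along the rising diagonal by their choice, and on the right, where the y axis was not used to call them, most lie along the falling diagonal. The right panel describes the reversal for which batch 190306 was set apart and is no independent test of it.

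The RNA of the IL-2 receptor's alpha chain and of the feedback inhibitors Socs2 and Cish fell with anti-IL-2 in batches 181201 and 181212. Il2ra (chr2:11642807-11693193 on GRCm38) was at 237 CPM with IgG and 59.9 CPM with anti-IL-2 in batch 181201, 256 and 60.9 CPM in batch 181212, and 65.7 and 225 CPM in batch 190306. It fell by 2.01 ± 0.12 (adjusted p = 2.2e-06), and in batch 190306 the IgG library, not the anti-IL-2 library, was the low one. Socs2, which restrains cytokine receptors, was at 21.4 CPM with IgG and 2.73 CPM with anti-IL-2 in batch 181201, 18.6 and 1.65 CPM in batch 181212, and 2.49 and 16.3 CPM in batch 190306, and it fell by 3.15 ± 0.18 (adjusted p = 2.1e-07). The 2 anti-IL-2 libraries of batches 181201 and 181212 lay well below the 2 IgG libraries, while over all 6 libraries the treatments overlapped. Cish, which dampens the IL-2 receptor, was at 118 CPM with IgG and 36.3 CPM with anti-IL-2 in batch 181201, 87.2 and 34.5 CPM in batch 181212, and 38.0 and 91.9 CPM in batch 190306, and it fell by 1.51 ± 0.10 (adjusted p = 1.9e-06). With all 3 batches in the fit, Il2ra gave -0.99 ± 0.82 (adjusted p = 0.99), Socs2 -1.20 ± 1.46 (adjusted p = 0.99) and Cish -0.69 ± 0.61 (adjusted p = 0.99).

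The other chains of the receptor gave smaller values. Il2rb, the beta chain, was at 1517 CPM with IgG and 1052 CPM with anti-IL-2 in batch 181201, 1428 and 1015 CPM in batch 181212, and 1352 and 1619 CPM in batch 190306, and it fell by 0.49 ± 0.08 (adjusted p = 0.00073). Il2rg, the common gamma chain, gave -0.06 ± 0.09 (adjusted p = 0.69), and Il7r, the IL-7 receptor, -0.30 ± 0.28 (adjusted p = 0.53). Il2 itself was low in every library, from 1.5 to 4.04 CPM, and gave 0.74 ± 0.28 (adjusted p = 0.077). Of the 11 tested genes of IL-2 family cytokines and receptors, 2 rose and 2 fell, with a median log2 fold change of -0.06. Over all genes tested 9.8% rose and 10.3% fell. Il21, the cytokine that follicular helper cells make, rose by 0.94 ± 0.15 (adjusted p = 0.0014), and its receptor Il21r rose by 0.24 ± 0.07 (adjusted p = 0.034), a call lost without any of 3 of the 4 libraries of those batches (adjusted p of 0.081, 0.33 and 0.17). Among JAK kinases and STAT factors 5 of 11 rose and 0 fell (median 0.18). Stat5a rose by 0.40 ± 0.06 (adjusted p = 0.00057) and Stat5b rose by 0.30 ± 0.05 (adjusted p = 0.0012). Stat4, which also passed, missed the threshold without the IgG library of batch 181201 (adjusted p = 0.063) or the anti-IL-2 library of batch 181212 (adjusted p = 0.089).

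Of 31 tested STAT5 targets and feedback inhibitors, 15 fell and 1 rose, with a median of -0.41, against 10.3% and 9.8% over all genes tested. In batch 190306 the median difference of the same genes was 0.20 on the log2 CPM scale. Il18r1, a chain of the IL-18 receptor, was at 1500 CPM with IgG and 868 CPM with anti-IL-2 in batch 181201, 1638 and 947 CPM in batch 181212, and 809 and 1185 CPM in batch 190306, and it fell by 0.77 ± 0.05 (adjusted p = 6.3e-07). Gzmb, the serine protease granzyme B, was at 683 CPM with IgG and 225 CPM with anti-IL-2 in batch 181201, 709 and 205 CPM in batch 181212, and 211 and 608 CPM in batch 190306, and it fell by 1.67 ± 0.10 (adjusted p = 1.9e-06). Both were lower with anti-IL-2 in batches 181201 and 181212 and higher in batch 190306. Prf1, the pore-forming perforin, fell by 0.68 ± 0.07 (adjusted p = 2.2e-05). Other members did not pass: Socs1, another inhibitor, gave -0.04 ± 0.10 (adjusted p = 0.82), Socs3 0.53 ± 0.18 (adjusted p = 0.085), Bcl2, which protects from cell death, 0.04 ± 0.10 (adjusted p = 0.85), and Foxp3, the factor of regulatory T cells, -0.08 ± 0.23 (adjusted p = 0.85). With 1 of the 4 libraries left out, the median lay between -0.34 (IgG, batch 181201, or anti-IL-2, batch 181212) and -0.39 (IgG, batch 181212).

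Cish is shown by sequence because it fell and a pair of STAT motifs lies at its annotated start, and Il18r1 because it had the smallest adjusted p of the list after Socs2 and 1 of its 3 annotated promoters holds 2 matches, while the other 2 promoters hold 0. Promoters were read from RefSeq (GRCm38.p6), and the motif searched was TTCNNNGAA, which reads the same on both strands. Of 32851 promoters of the same length, 8.3% held it and 0.457% held it at least 2 times. The list of STAT5 targets matched 24 genes in that table, of which 10 (41.7%) had a promoter with the motif, against 9.55% of all genes in the table. That share was not split into genes that fell and genes that did not. Socs3, Foxp3 and Ifng, which did not pass, each have a promoter with 1 match, while Prf1 and Prdm1, which fell, have 0 matches. The 55 bases at chr9:107296634-107296688 on the plus strand and the 126 bases of Il18r1 at chr1:40465762-40465887 on the plus strand, with the motif in capitals, read as follows.
Cish: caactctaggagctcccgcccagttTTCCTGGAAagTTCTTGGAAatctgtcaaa
Il18r1: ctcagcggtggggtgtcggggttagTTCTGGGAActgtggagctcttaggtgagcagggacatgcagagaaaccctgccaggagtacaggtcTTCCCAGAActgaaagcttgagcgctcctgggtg
The first match in Cish starts at the annotated start site, position 1, and the second ends at position 20. A match is a description of the letters, not a site of binding. Il2ra holds no match in its window, from which nothing follows about STAT5.

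**Figure D3:**
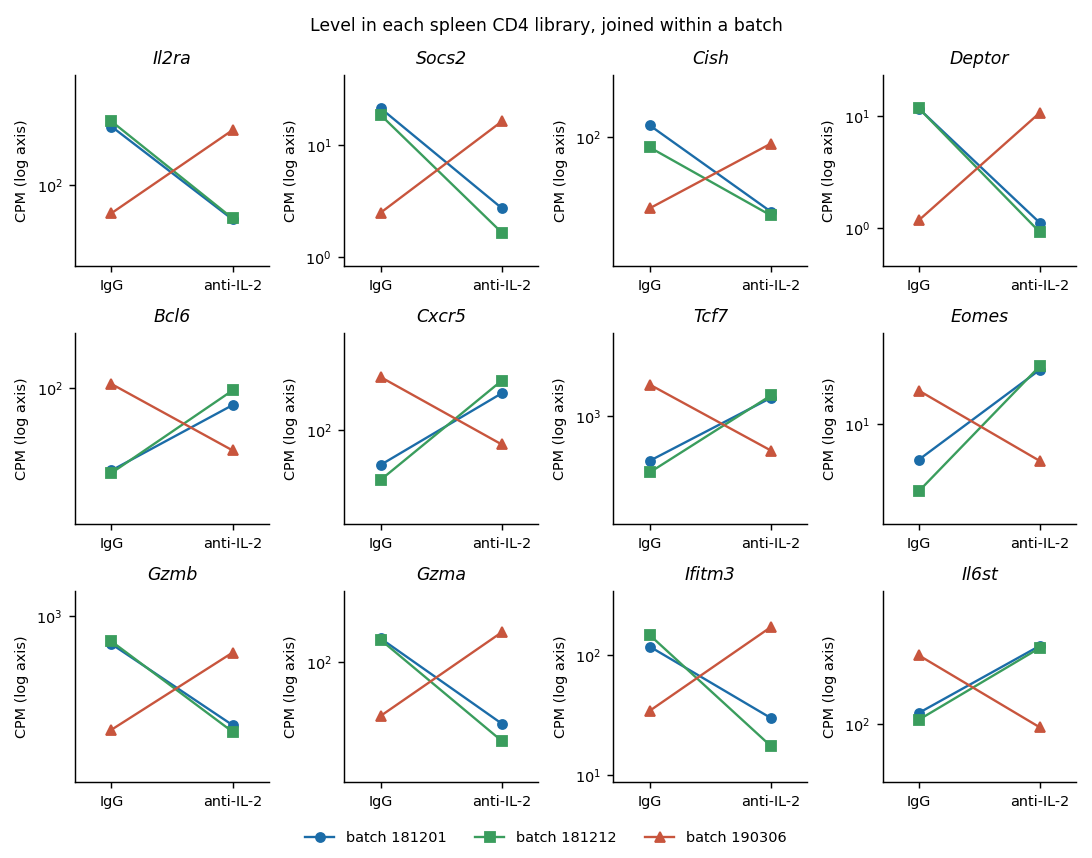
CPM (log axis) of 12 genes in the 6 spleen CD4 libraries, IgG on the left and anti-IL-2 on the right of each panel, with a line joining the 2 libraries of a batch. In every panel the lines of batches 181201 and 181212 run together and the line of batch 190306 crosses them, as for Il2ra, at 237 to 59.9, 256 to 60.9 and 65.7 to 225 CPM.

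Follicular helper genes rose together in batches 181201 and 181212. Of 18 tested, 13 rose and 0 fell, with a median of 1.13, and in batch 190306 their median difference was -1.13 on the log2 CPM scale. Bcl6, the lineage factor, was at 33.0 CPM with IgG and 79.8 CPM with anti-IL-2 in batch 181201, 31.9 and 97.3 CPM in batch 181212, and 106 and 43.3 CPM in batch 190306, and it rose by 1.47 ± 0.11 (adjusted p = 1.2e-06). Cxcr5, the chemokine receptor that leads T cells into B cell follicles, was at 57.8 CPM with IgG and 177 CPM with anti-IL-2 in batch 181201, 45.7 and 216 CPM in batch 181212, and 228 and 79.6 CPM in batch 190306, and it rose by 1.94 ± 0.20 (adjusted p = 0.00033). Il6st, the signalling chain of the IL-6 receptor, was at 115 CPM with IgG and 269 CPM with anti-IL-2 in batch 181201, 106 and 262 CPM in batch 181212, and 238 and 95.8 CPM in batch 190306, and it rose by 1.29 ± 0.06 (adjusted p = 7.8e-08), the smallest adjusted p of the list. For Bcl6 and Cxcr5 the IgG library of batch 190306 had the highest value of the 6, and for Il6st it was exceeded by both anti-IL-2 libraries of the other batches. Il6ra, the binding chain of that receptor, rose by 1.46 ± 0.16 (adjusted p = 0.00015). Izumo1r, a member of the folate receptor family by sequence, rose by 1.29 ± 0.09 (adjusted p = 7e-07), and Cd200, a ligand that restrains myeloid cells, rose by 1.13 ± 0.10 (adjusted p = 5.9e-06). Pdcd1, which encodes the inhibitory receptor PD-1 and marks both follicular and exhausted cells, gave 0.10 ± 0.06 (adjusted p = 0.28). The median of the 18 lay between 0.91 (without the anti-IL-2 library of batch 181212) and 1.26 (without the IgG library of batch 181201) when 1 library was left out.

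Genes of naive and memory cells also rose, 9 of 15 tested with 0 lower (median 0.49). Tcf7, the factor TCF-1 that keeps T cells able to renew, was at 553 CPM with IgG and 1281 CPM with anti-IL-2 in batch 181201, 474 and 1322 CPM in batch 181212, and 1529 and 634 CPM in batch 190306, and it rose by 1.37 ± 0.12 (adjusted p = 4.1e-05). Id3, an inhibitor of E proteins, was at 14.2 CPM with IgG and 32.7 CPM with anti-IL-2 in batch 181201, 12.6 and 34.4 CPM in batch 181212, and 58.9 and 19.2 CPM in batch 190306, and it rose by 1.35 ± 0.12 (adjusted p = 6.9e-06). In both, the IgG library of batch 190306 had the highest value of the 6. Ccr7, which takes T cells to lymph nodes, rose by 1.55 ± 0.16 (adjusted p = 3.3e-05), and Cd27, a costimulator, rose by 0.49 ± 0.06 (adjusted p = 0.0001). Dapl1, found in naive and early memory cells, rose by 2.29 ± 0.18 (adjusted p = 1.9e-06).

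Among 18 transcription factors of effector fate, 8 rose and 6 fell (median 0.39), and 4 rose without the IgG library of batch 181212. Eomes, a T-box factor of memory and cytotoxic cells, was at 4.73 CPM with IgG and 31.0 CPM with anti-IL-2 in batch 181201, 2.45 and 33.5 CPM in batch 181212, and 20.0 and 4.59 CPM in batch 190306. It rose by 3.19 ± 0.50 (adjusted p = 0.0083), the largest rise among called genes of mean log2 CPM of 2 or more, and without the IgG library of batch 181212 it gave 2.78 (adjusted p = 0.068). Tbx21, the T-box factor of Th1 cells, was at 235 CPM with IgG and 122 CPM with anti-IL-2 in batch 181201, 228 and 154 CPM in batch 181212, and 218 and 253 CPM in batch 190306, and it fell by 0.73 ± 0.10 (adjusted p = 0.00049). The related factors thus moved in opposite directions in the same libraries. Gata3, the factor of Th2 cells, fell by 0.75 ± 0.09 (adjusted p = 4.9e-05), and Prdm1, which encodes Blimp-1 and opposes Bcl6, fell by 0.47 ± 0.07 (adjusted p = 0.00043). Tox, a factor of persistently stimulated cells, rose by 0.92 ± 0.17 (adjusted p = 0.0089), and gave 0.75 without that library (adjusted p = 0.07).

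Cytotoxicity genes fell, 14 of 20 tested with 3 higher (median -0.68), and in batch 190306 their median difference was 0.49. Gzma, granzyme A, was at 149 CPM with IgG and 35.9 CPM with anti-IL-2 in batch 181201, 145 and 26.9 CPM in batch 181212, and 40.8 and 165 CPM in batch 190306, and it fell by 2.23 ± 0.19 (adjusted p = 0.0003). Klrk1, the activating receptor NKG2D, was at 67.0 CPM with IgG and 21.6 CPM with anti-IL-2 in batch 181201, 56.7 and 16.7 CPM in batch 181212, and 10.6 and 34.6 CPM in batch 190306, and it fell by 1.66 ± 0.11 (adjusted p = 1.9e-06). Gzmk, granzyme K, went the other way: it was at 15.2 CPM with IgG and 57.6 CPM with anti-IL-2 in batch 181201, 13.9 and 53.9 CPM in batch 181212, and 37.8 and 13.3 CPM in batch 190306, and it rose by 1.96 ± 0.17 (adjusted p = 6.9e-05). In batches 181201 and 181212 the anti-IL-2 libraries had less Gzma and Gzmb and more Gzmk than the IgG libraries, and in batch 190306 more Gzma and Gzmb and less Gzmk. Klrd1, the receptor CD94, fell by 1.09 ± 0.08 (adjusted p = 1.9e-06), and Serpinb9, which protects a cell from its own granzyme B, fell by 0.93 ± 0.08 (adjusted p = 5.6e-06).

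Of 18 tested Th1 genes and inflammatory cytokines, 9 fell and 3 rose (median -0.53). Csf2, the cytokine GM-CSF, was at 18.0 CPM with IgG and 3.14 CPM with anti-IL-2 in batch 181201, 9.80 and 2.45 CPM in batch 181212, and 2.27 and 8.12 CPM in batch 190306, and it fell by 2.27 ± 0.23 (adjusted p = 2.1e-05). Cxcr6, a homing receptor of effector cells, fell by 0.74 ± 0.09 (adjusted p = 6e-05). Ifng, the cytokine interferon gamma, was at 135 CPM with IgG and 55.6 CPM with anti-IL-2 in batch 181201, 64.7 and 80.8 CPM in batch 181212, and 39.1 and 85.7 CPM in batch 190306, and gave -0.49 ± 0.48 (adjusted p = 0.55). Its difference had opposite signs in batches 181201 and 181212. Of 9 tested Th2 genes, 6 fell and 1 rose (median -1.24), with 3 lower without either library of batch 181212. Il17rb, a receptor of IL-25, fell by 2.30 ± 0.28 (adjusted p = 6.9e-05), from levels of at most 5.72 CPM. Of 10 Th17 genes, 1 rose and 1 fell, beside 9.8% higher and 10.3% lower over all genes. Of 11 regulatory T cell genes, 0 rose and 2 fell (Capg and Nrp1), with 0 either way without the anti-IL-2 library of batch 181201. Foxp3 was at 32.9 CPM with IgG and 31.7 CPM with anti-IL-2 in batch 181201, 38.8 and 35.0 CPM in batch 181212, and 67.0 and 72.3 CPM in batch 190306, so its level differed more between batch 190306 and the other batches than between treatments within a batch. In sorted bulk RNA, fewer cells of a kind and less RNA per cell cannot be told apart.

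Among inhibitory receptors 4 of 11 fell and 1 rose, beside 10.3% lower and 9.8% higher over all genes. Havcr2, which encodes TIM-3, was at 126 CPM with IgG and 53.5 CPM with anti-IL-2 in batch 181201, 148 and 61.8 CPM in batch 181212, and 44.4 and 98.7 CPM in batch 190306, and it fell by 1.23 ± 0.08 (adjusted p = 7.3e-07). Btla, an inhibitory receptor also found on follicular helper cells, rose by 0.93 ± 0.11 (adjusted p = 0.00033), while Lag3 gave 0.21 ± 0.07 (adjusted p = 0.061). Costimulators rose more often than they fell, 7 against 2 of 15 (median 0.21), among them Tnfrsf14 (0.75 ± 0.09 (adjusted p = 3.6e-05)) and Tnfsf8 (0.95 ± 0.11 (adjusted p = 0.00014)). Of 24 chemokine receptors and homing molecules, 8 rose and 7 fell. Itga1, the collagen-binding integrin chain of resident T cells, was at 93.8 CPM with IgG and 19.9 CPM with anti-IL-2 in batch 181201, 108 and 19.1 CPM in batch 181212, and 19.9 and 70.7 CPM in batch 190306, and it fell by 2.35 ± 0.18 (adjusted p = 5.5e-05). Gpr183, a receptor for oxysterols that guides cells at follicle borders, rose by 0.65 ± 0.08 (adjusted p = 0.00012).

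Interferon response genes rose, 26 of 31 tested with 0 lower (median 0.66), and in batch 190306 their median difference was -0.69. Mx1, an antiviral GTPase, was at 18.1 CPM with IgG and 46.5 CPM with anti-IL-2 in batch 181201, 18.3 and 52.9 CPM in batch 181212, and 44.6 and 22.5 CPM in batch 190306, and it rose by 1.47 ± 0.09 (adjusted p = 2.8e-07). Ifit3, which helps detect foreign RNA, was at 11.6 CPM with IgG and 27.9 CPM with anti-IL-2 in batch 181201, 9.39 and 34.5 CPM in batch 181212, and 31.1 and 12 CPM in batch 190306, and it rose by 1.59 ± 0.18 (adjusted p = 3.6e-05). Oas1a, an RNA sensor, rose by 1.14 ± 0.12 (adjusted p = 1.4e-05). The IFITM family, some members of which block virus entry and are also induced by interferon, went the other way. Of its 4 tested genes 3 fell and 0 rose (median -1.78). The 3 were Ifitm3, Ifitm2 and Ifitm10, which lies apart from the others at chr7:142325837-142373753. The change of Ifitm10 was smaller, at -0.48 without the IgG library of batch 181201. Ifitm3 was at 117 CPM with IgG and 29.9 CPM with anti-IL-2 in batch 181201, 146 and 17.5 CPM in batch 181212, and 34.4 and 169.9 CPM in batch 190306, and it fell by 2.44 ± 0.33 (adjusted p = 0.0041). Ifitm2 fell by 1.86 ± 0.33 (adjusted p = 0.014), lost without either library of batch 181212 (adjusted p of 0.074 and 0.085), and Ifitm1 gave -1.70 ± 0.55 (adjusted p = 0.096). Ifitm1, Ifitm2 and Ifitm3 are related genes that lie together on chromosome 7, and whether reads of 1 were lost or counted to another was not tested. Macrophage markers moved in the same direction as the interferon genes in each batch, as given above. Without the anti-IL-2 library of batch 181201, 22 of 31 interferon genes rose. Of the 4 IFITM genes, 3 fell without that library, 2 without either IgG library and 1 without the anti-IL-2 library of batch 181212. With the spleen CD4 libraries alone in the fit, 0 of the 4 IFITM genes passed.

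The promoters of these genes are shown because Ifit3 and Ifitm3 carry the same interferon motif and moved in opposite directions. The motif searched was GAAANNGAAA on both strands (TTTCNNTTTC on the other), a form of the interferon-stimulated response element, chosen after the values were seen. It was in 3.44% of all 32851 promoters, 0.225% with at least 2 matches. Of 21 interferon response genes found in the table, 12 (57.1%) had a promoter with it, and of 4 IFITM genes 2 did, against 3.99% of all genes in the table. The sequences run 5′ to 3′ on the strand of the gene, with the motif in capitals: Ifit3 at chr19:34583348-34583441 on the plus strand, Oas1a at chr5:120907505-120907570 on the minus strand and Ifitm3 at chr7:141010715-141010767 on the minus strand.
Ifit3: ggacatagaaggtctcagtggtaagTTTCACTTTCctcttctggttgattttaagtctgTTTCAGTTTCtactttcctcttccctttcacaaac
Oas1a: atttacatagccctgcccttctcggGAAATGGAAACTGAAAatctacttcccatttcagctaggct
Ifitm3: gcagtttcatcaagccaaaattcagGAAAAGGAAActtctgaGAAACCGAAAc
In Oas1a the 2 matches overlap. Ifit3 and Oas1a, which rose, and Ifitm3, which fell, thus hold 2 matches each, but at unlike places. The matches span positions -156 to -113 in Ifit3 and -20 to -5 in Oas1a, before the start site, and 3 to 29 in Ifitm3, after it.

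**Figure D4:**
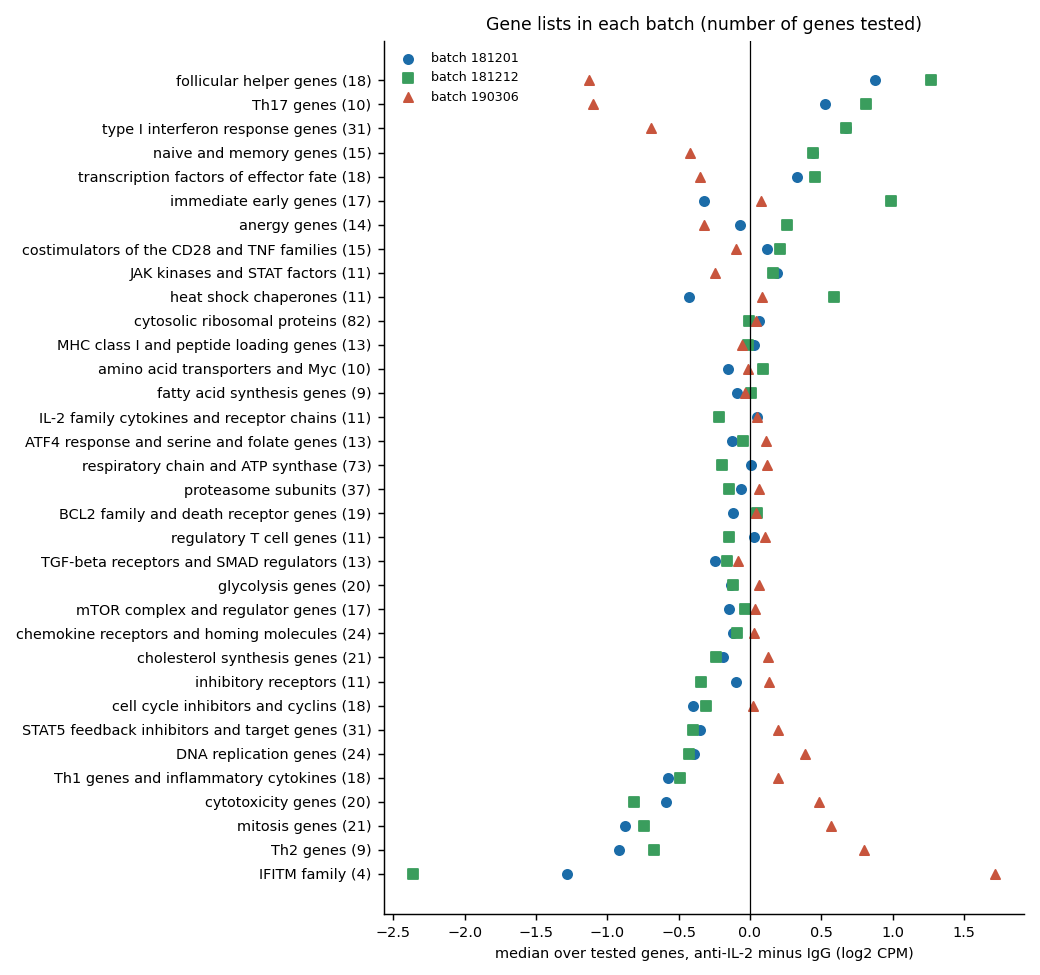
Median difference between anti-IL-2 and IgG (log2 CPM) over the tested genes of 34 lists, with 1 symbol per batch and the number of genes tested in brackets. The lists are ordered by their median in the fit over batches 181201 and 181212, with follicular helper genes at the top and IFITM genes at the bottom, and batch 190306 has the opposite sign for both.

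Genes of dividing cells fell. All 21 tested mitosis genes fell (median -0.74), with the same count without the anti-IL-2 library of batch 181201, and in batch 190306 their median difference was 0.57. Mki67, the proliferation marker Ki-67, was at 1155 CPM with IgG and 611 CPM with anti-IL-2 in batch 181201, 1235 and 703 CPM in batch 181212, and 816 and 1230 CPM in batch 190306, and it fell by 0.84 ± 0.07 (adjusted p = 4.2e-06). Cenpe, a motor protein of the kinetochore, fell by 0.94 ± 0.07 (adjusted p = 1.1e-06). Of 24 DNA replication genes, 17 fell and 0 rose (median -0.44). Rrm2, a subunit of ribonucleotide reductase, was at 92.1 CPM with IgG and 61.1 CPM with anti-IL-2 in batch 181201, 115 and 66.1 CPM in batch 181212, and 81.0 and 119.9 CPM in batch 190306, and it fell by 0.67 ± 0.07 (adjusted p = 2.2e-05). The 2 IgG libraries of batches 181201 and 181212 exceeded the 2 anti-IL-2 libraries for both Mki67 and Rrm2. Of 18 cyclins and cell cycle inhibitors 6 fell and 1 rose, the fallen including E2f2 (-0.68 ± 0.06 (adjusted p = 8e-06)).

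Metabolic lists gave medians near 0, with larger changes in single genes. Deptor, an inhibitor bound to the kinase mTOR, was at 11.6 CPM with IgG and 1.11 CPM with anti-IL-2 in batch 181201, 11.7 and 0.918 CPM in batch 181212, and 1.18 and 10.7 CPM in batch 190306, and it fell by 3.47 ± 0.21 (adjusted p = 2.8e-07). Sesn3, which senses stress upstream of mTOR, rose by 0.86 ± 0.09 (adjusted p = 3.4e-05). Of 17 genes of mTOR complexes and their regulators, 5 fell and 1 rose, with 1 to 3 lower without 1 of the 4 libraries (1 without the anti-IL-2 library of batch 181201, 2 without either IgG library and 3 without the anti-IL-2 library of batch 181212). Hk2, hexokinase 2, the entry to glycolysis, was at 53.9 CPM with IgG and 27.4 CPM with anti-IL-2 in batch 181201, 60.4 and 30.8 CPM in batch 181212, and 29.8 and 42.1 CPM in batch 190306, and it fell by 0.95 ± 0.08 (adjusted p = 2.4e-06). Among 20 glycolysis genes 6 fell and 3 rose (median -0.12), with 2 lower without the anti-IL-2 library of batch 181201 and 1 higher without either library of batch 181212. Of 21 cholesterol synthesis genes 6 fell and 0 rose (median -0.17), with 2 lower without the IgG library of batch 181212. Of 73 respiratory chain and ATP synthase genes 10 fell and 1 rose (median -0.07), beside 10.3% lower and 9.8% higher over all genes, with 6 lower without the IgG library of batch 181201, 4 without its anti-IL-2 library and 2 without either library of batch 181212. Cytosolic ribosomal proteins gave 3 higher and 0 lower of 82, beside 9.8% over all genes, with 0 higher without the anti-IL-2 library of batch 181201 and 1 without either IgG library. Myc, a transcription factor of cell growth, gave -0.13 ± 0.07 (adjusted p = 0.26).

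Death receptor genes held single changes. Fas, the death receptor, was at 17.3 CPM with IgG and 46.3 CPM with anti-IL-2 in batch 181201, 20.2 and 40.4 CPM in batch 181212, and 33.6 and 17.7 CPM in batch 190306, and it rose by 1.23 ± 0.10 (adjusted p = 3.1e-06), while its ligand Fasl fell by 0.68 ± 0.08 (adjusted p = 4.6e-05). Of 19 tested genes of the BCL2 family and death receptors 1 rose and 3 fell, beside 9.8% higher and 10.3% lower over all genes. Among 14 anergy genes 5 rose and 1 fell (median 0.23). Nt5e, the enzyme CD73, rose by 0.78 ± 0.08 (adjusted p = 1.4e-05), Cblb, a ubiquitin ligase that restrains T cell receptor signals, rose by 0.37 ± 0.06 (adjusted p = 0.0011), and Ndrg1 fell by 1.44 ± 0.17 (adjusted p = 0.00017). Of 13 TGF-beta genes 2 rose and 3 fell, and of 13 MHC class I genes 2 rose and 0 fell, beside the same shares over all genes.

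Stress and immediate early genes, which respond to handling of cells, did not pass. Of 11 heat shock chaperones 0 passed in either direction, with medians of -0.42, 0.59 and 0.09 in batches 181201, 181212 and 190306 on the log2 CPM scale. Of 17 immediate early genes 0 passed, with medians of -0.33, 0.99 and 0.08. Hspa1a, the inducible HSP70, was at 1.23 CPM with IgG and 0.101 CPM with anti-IL-2 in batch 181201, 2.39 and 70.0 CPM in batch 181212, and 15.7 and 11.6 CPM in batch 190306. Its high value lay in 1 library, the anti-IL-2 library of batch 181212.

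Among all genes whose mean log2 CPM was 2 or more, the largest rises after Eomes were those of Slc40a1 and Vcam1. Slc40a1, the iron exporter ferroportin, was at 5.72 CPM with IgG and 47.6 CPM with anti-IL-2 in batch 181201, 0.933 and 4.35 CPM in batch 181212, and 27.9 and 1.37 CPM in batch 190306, and Vcam1, an adhesion molecule, at 12.4 CPM with IgG and 84.2 CPM with anti-IL-2 in batch 181201, 1.52 and 8.51 CPM in batch 181212, and 40.3 and 1.90 CPM in batch 190306. Slc40a1 rose by 2.84 ± 0.28 (adjusted p = 1.6e-05) and Vcam1 rose by 2.64 ± 0.58 (adjusted p = 0.026). Both are in the list of macrophage markers, whose sum was high in the same libraries. Sdc3, a proteoglycan, had the same order, at 7.59 CPM with IgG and 47.2 CPM with anti-IL-2 in batch 181201, 4.08 and 10.9 CPM in batch 181212, and 42.9 and 5.25 CPM in batch 190306. Vcam1 missed the threshold without any 1 of the 4 libraries (adjusted p from 0.050 to 0.24) and Sdc3 without 3 of them (adjusted p from 0.13 to 0.22). Without the anti-IL-2 library of batch 181201, Vcam1 gave 2.02, Sdc3 1.35 and Slc40a1 2.42 (adjusted p = 0.0019). H2-Ob, a chain that tunes peptide loading on MHC class II, rose by 2.17 ± 0.21 (adjusted p = 1.1e-05), and 4 of 7 MHC class II genes rose, with sums of 41.2 and 120 CPM, 30 and 59.2 CPM, and 104 and 42.5 CPM in the 3 batches. Of the 7, 0 rose without either library of batch 181201 and 1 without the IgG library of batch 181212.

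Among the same genes, those with a mean log2 CPM of 2 or more, the largest falls after Socs2 were Ifitm3, Pik3r6 and Itga1. Pik3r6, a regulatory subunit of PI3K gamma, was at 13.1 CPM with IgG and 2.99 CPM with anti-IL-2 in batch 181201, 15.8 and 2.27 CPM in batch 181212, and 5.69 and 15.9 CPM in batch 190306, and it fell by 2.43 ± 0.19 (adjusted p = 2.3e-06). Anxa1, a lipid-binding protein that restrains inflammation, was at 87.8 CPM with IgG and 26.3 CPM with anti-IL-2 in batch 181201, 127 and 27.4 CPM in batch 181212, and 32.2 and 90.8 CPM in batch 190306, and it fell by 1.97 ± 0.31 (adjusted p = 0.0072), with an adjusted p of 0.078 without the anti-IL-2 library of batch 181201 and 0.064 without that of batch 181212. Cbfa2t3, a transcriptional corepressor, fell by 2.05 ± 0.15 (adjusted p = 2.4e-06), and Itsn1, an endocytic scaffold, fell by 2.19 ± 0.15 (adjusted p = 7e-07). The 15 falls ranged from -1.91 ± 0.19 for Myh10, a non-muscle myosin, to -3.15 ± 0.18 for Socs2. Each of the 15 largest rises and 15 largest falls had the opposite sign in batch 190306.

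**Figure D5:**
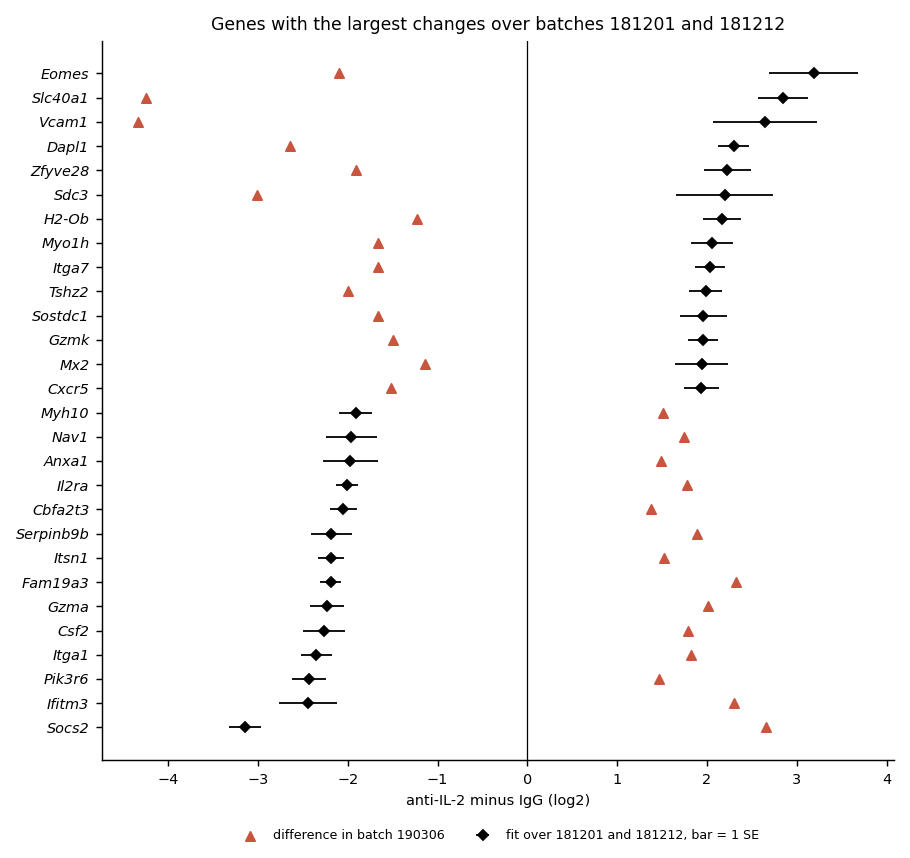
Log2 fold change over batches 181201 and 181212 (diamonds, bar = 1 SE) and the difference in batch 190306 (triangles, log2 CPM) for 28 of the 30 largest changes, 14 rises and 14 falls. Diamonds and triangles lie on opposite sides of 0 for all 28 genes, which were chosen by the diamonds and a minimum mean level over all 6 libraries. Batch 190306 was set apart because its labelled difference ran the other way, so the opposite sides describe that reversal and are no independent test.

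Few genes kept 1 direction through all batches. Of the 13073 tested, 1936 (14.8%) had the same sign in all 3, among them 115 of the 2627 called. Cdk5rap1, which modifies mitochondrial transfer RNA, was at 21.1 CPM with IgG and 11.9 CPM with anti-IL-2 in batch 181201, 15.6 and 10.9 CPM in batch 181212, and 34.8 and 10.4 CPM in batch 190306, lower with anti-IL-2 in each batch, with -1.04 ± 0.27 (adjusted p = 0.99) over all 3. Lars2, the mitochondrial leucyl-tRNA synthetase, was at 321 CPM with IgG and 163 CPM with anti-IL-2 in batch 181201, 464 and 131 CPM in batch 181212, and 287 and 161 CPM in batch 190306, and gave -1.29 ± 0.62 (adjusted p = 0.99) over all 3. Ppp1r10, a nuclear phosphatase subunit, had the smallest p over all 3 batches, with -0.25 ± 0.06 (adjusted p = 0.99). These genes were picked for their sign or their p, so their values are a description.

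The treatment difference was also set against that in other cells of the same batches, again without batch 190306. Between spleen CD4 and spleen CD8 cells it differed for 120 genes, 22 (0.168%) with the higher and 98 (0.75%) with the lower value in CD4 cells. Esm1, a secreted proteoglycan, was at 5.54 CPM with IgG and 20.4 CPM with anti-IL-2 in batch 181201, 6.47 and 18.3 CPM in batch 181212, and 10.8 and 4.19 CPM in batch 190306 in CD4 cells; its fold change was 1.71 ± 0.13 there and -0.77 ± 0.11 in CD8 cells, a difference of 2.48 ± 0.17 (adjusted p = 2e-05). Gzmk gave 1.96 ± 0.17 in CD4 and 0.29 ± 0.14 in CD8 cells, a difference of 1.66 ± 0.22 (adjusted p = 0.015). Esm1 lies within the annotated span of Gzmk on chromosome 13, on the other strand. Whether reads of 1 of these genes were counted to the other was not tested, so they may not be separate results. Tiam1, an activator of Rac, gave 1.38 ± 0.11 and -0.09 ± 0.13, a difference of 1.47 ± 0.17 (adjusted p = 0.0012). The STAT5 targets Il2ra and Socs2 did not pass: Il2ra gave -2.01 ± 0.12 in CD4 and -1.78 ± 0.12 in CD8 cells, a difference of -0.23 ± 0.16 (adjusted p = 0.86), and Socs2 -3.15 ± 0.18 and -3.89 ± 0.24, a difference of 0.75 ± 0.34 (adjusted p = 0.6). Csf2 fell further in CD4 cells, with -2.27 ± 0.23 against -0.33 ± 0.26 and a difference of -1.93 ± 0.36 (adjusted p = 0.022). The number fell to 56 without the anti-IL-2 library of batch 181201 and to between 64 and 74 without each of the other 3 spleen CD4 libraries, and with no batch term, so that libraries of a batch are not paired, it was 52.

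Between CD4 cells of spleen and gut the difference itself differed for 705 genes, 254 (1.94%) higher and 451 (3.45%) lower in the spleen. In that fit the gut had 1 IgG library, taken to vary like the others, and 316 genes passed without the spleen anti-IL-2 library of batch 181201 and 230 with no batch term. For 20 of 21 mitosis genes and 18 of 24 DNA replication genes that difference passed the test with the lower value in the spleen. Mki67 gave -0.84 ± 0.07 in spleen and 0.08 ± 0.09 in gut, a difference of -0.92 ± 0.12 (adjusted p = 0.00071). Rrm2 gave -0.67 ± 0.07 and 0.42 ± 0.09, a difference of -1.09 ± 0.12 (adjusted p = 0.00025). Gzmb gave -1.67 ± 0.10 and 0.16 ± 0.12, a difference of -1.84 ± 0.16 (adjusted p = 0.00025), 1 of 11 of the 20 cytotoxicity genes to pass with the lower value in the spleen. Il2ra, at -2.01 ± 0.12 and -1.08 ± 0.14, differed by -0.92 ± 0.19 (adjusted p = 0.018), and Cish, at -1.51 ± 0.10 and -0.59 ± 0.12, by -0.91 ± 0.16 (adjusted p = 0.0066). For the follicular helper factor Bcl6 the difference was 0.63 ± 0.17 (adjusted p = 0.053) and for Cxcr5 -0.93 ± 0.40 (adjusted p = 0.26), neither past the threshold. Rgs10, a brake on G protein signals, gave 0.88 ± 0.08 in spleen and -0.49 ± 0.10 in gut, a difference of 1.37 ± 0.13 (adjusted p = 0.00025).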

How the data were processed

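RNA of donor T cells was sequenced, and reads per gene were deposited as raw counts by the authors in 1 table of 24091 gene names and 22 libraries. Per the submitters' processing notes, TopHat2, HTSeq 0.9.1 and mm10 were used, with no role or order given. Per-library columns were matched to samples by title. Of the names, 23509 (97.6%) were found in GENCODE M21, which gave positions on GRCm38.

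Counts were tested with edgeR 4.0.16 (R 4.3.3): TMM scaling, filterByExpr on the group, a robust quasi-likelihood fit with group and batch terms, and Benjamini-Hochberg adjustment over all genes tested, with a threshold of 0.05. The contrast over batches 181201 and 181212 was fitted on the 14 libraries of those batches, so its spread is shared with spleen CD8, gut CD4 and gut CD8 cells, with 5 residual degrees of freedom. The contrast over all 3 batches used 22 libraries (12 residual degrees of freedom). CPM values and per-batch differences were scaled by TMM, the differences as log2 CPM with a prior count of 2. The libraries were paired through the batch given in the labels. Deviations from the group means of the IgG and anti-IL-2 libraries of a batch correlated at -0.062, 0.0121 and -0.136 in batches 181201, 181212 and 190306. The group means included batch 190306, whose difference ran the other way. These correlations therefore cannot show whether libraries of a batch vary together. DESeq2 1.42.0, limma 3.58.1 (voom), RLE scaling, other filters, no batch term and leaving out libraries were alternatives. The scripts were tested on simulated data. Libraries of a group differed by more than sampling noise.

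Named genes were the 15 largest changes per direction over batches 181201 and 181212 (adjusted p under 0.05, mean log2 CPM of at least 2, same sign in both batches, no clone names or immunoglobulin or T cell receptor segments), up to 6 members per list with the smallest p in each of 48 lists, a panel of IL-2 pathway and T cell genes, the 5 smallest p over all 3 batches, the 5 smallest p per direction of each comparison with other cells, and 8 per direction with 1 sign in all batches. The members and lists were chosen with earlier results of these data known. Total counts of 15598591 to 23172919 limit the precision of genes at a few CPM. Values of a few genes that meet the rule are not reported here.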

Additional observations from a re-analysis of the deposited data

Results flagged for a closer look

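The results below stand here because the treatment difference itself differed between groups of libraries in an edgeR interaction test (adjusted p under 0.05). The treatment difference of batch 190306 differed from that of batches 181201 and 181212 for 3111 genes in spleen CD4 cells. That batch was set apart because its labelled difference ran the other way and holds 1 library of each treatment, so the count is a description and no independent test. The difference in spleen CD4 cells differed from that in spleen CD8 cells for 120 genes and from that in gut CD4 cells for 705 genes.

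Against spleen CD8 cells, the genes with the smallest p and the higher value in CD4 cells were Esm1 (2.48 on the log2 scale), Klrb1c (2.33), Tiam1 (1.47), Crim1 (1.36) and Tspan32 (1.13). Those with the lower value were Dsp (-1.06), Srgap3 (-0.97), Adam8 (-0.86), Swap70 (-0.84) and Coro2a (-0.77). Such a value sets 1 treatment difference against another, and a higher value need not be a rise in CD4 cells. Klrb1c itself gave -0.42 in spleen CD4 cells, so its 2.33 stands for a larger fall in CD8 cells.

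Against gut CD4 cells, the genes with the smallest p and the higher value in the spleen were Ssbp2 (2.30), Rflnb (1.66), Rgs10 (1.37), Pnpla7 (1.17) and Nt5e (1.13). Those with the lower value were Slamf7 (-1.16), Coro2a (-1.09), Lamc1 (-1.08), Sept11 (-1.07) and Lmnb1 (-1.03). Coro2a, an actin-binding protein of the coronin family, was thus among the lower genes in both comparisons, which share the spleen CD4 libraries.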

How the results depend on the processing

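Over batches 181201 and 181212, 2627 genes passed, against 1773 with DESeq2, 2660 with voom and 2083 with no replicate block, and 1562 to 1882 without 1 of the 4 libraries (1562 without the anti-IL-2 library of batch 181201). Over all 3 batches 0 passed in every alternative, with 31 to 1387 genes at an unadjusted p under 0.05. The difference between batch 190306 and the others gave 2255 to 3003 genes without 1 library, beside 3111. Against CD8 cells 120 genes became 52 with no replicate block (no pairing of libraries by batch) and 56 to 74 without 1 library, and against gut cells 705 became 230 and 316 to 697 (316 without the anti-IL-2 library of batch 181201). The cause of these changes beyond the smaller number of samples was not tested. Of 3273 values of named genes under an alternative, 3004 kept their side of the threshold, 224 lost the call, 44 gained it and 1 changed sign after being called. For a gene called in neither fit, a change of sign was not counted, so the 3004 can include such changes. The 1 that changed sign after being called was Alas2, an erythroid gene. It gave -0.43 without the anti-IL-2 library of batch 181201 and 5.92 without that of batch 181212. Batch 190306 has 1 library per treatment, so its own differences have no replicate check.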
